A study of Mus musculus with 2 samples.

Results

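RAB GTPases are small proteins that mark the membranes of the secretory and endocytic pathways. They were taken here as the protein-coding genes whose mouse symbol is Rab followed by a number and, in some, a letter, which gave 59 of the 21474 protein-coding genes matched among 43346 Ensembl genes. The cells were MEL, an immortalized mouse line derived from an erythroleukemia, held in 2% dimethyl sulfoxide (DMSO) for 5 days, an agent that sets off hemoglobin synthesis in this line. Polyadenylated RNA was sequenced single-end in 2 libraries, labelled as biological replicates 1 and 2 of 1 group. Untreated cells were not analysed here, so the values describe levels under DMSO and do not measure what DMSO changed. Both libraries name the same cell sample, so separate cultures are not established and the spread between the libraries may be technical.

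Replicate 1 held 26149725 estimated reads and replicate 2 held 14149299. A gene without a read may still reach 3 counts by counting error, which is 0.115 CPM (library-scaled counts) for replicate 1 and 0.212 for replicate 2. The unit of level is TPM, a length-scaled abundance, in which reads are divided by effective transcript length, and errors are SDs of the 2 libraries (n = 2). In bulk RNA, fewer cells expressing a gene and less RNA per cell cannot be told apart. A gene is called detected at 1 TPM or more in both. All 7 erythroid marker genes were detected, with a summed level of 10739 TPM in replicate 1 and 16843 TPM in replicate 2. Of the markers of other lineages, 4 of 6 for megakaryocytes and platelets were detected, 1 of 4 for neurons, and none of 5 for mast cells, 6 for granulocytes and macrophages, 4 for lymphocytes, 4 for epithelium and 4 for melanocytes.

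A Rab protein cycles between a GTP-bound state, in which it recruits effectors such as tethers, motors and adaptors, and a GDP-bound state. Exchange factors load the GTP and GTPase-activating proteins speed its hydrolysis. Prenyl lipids on cysteines at the C-terminus hold the protein on the membrane, and GDP dissociation inhibitors take it off again. Red cell precursors import iron with transferrin, whose receptor passes through early endosomes marked by Rab5 and returns to the surface through recycling endosomes marked by Rab11.

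The C-terminal end of the coding sequence shows the prenylation sites that the members share and the ways in which they are arranged. A full-length coding sequence could be read for 58 members in the GENCODE M21 annotation of mm10. Of these, 49 had 2 cysteine codons among the last 5 before the stop, 8 had 1, and the annotated form of Rab18 had none. The last 60 coding bases, stop codon included, are shown for members at the top of the results below and for both Rab1 genes, with cysteine codons in capitals.
Rab7 (chr6:88000435-88000494, minus strand): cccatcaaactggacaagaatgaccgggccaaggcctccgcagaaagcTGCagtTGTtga
Rab10 (chr12:3249787-3249846, minus strand): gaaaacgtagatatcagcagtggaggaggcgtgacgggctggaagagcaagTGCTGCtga
Rab11a (chr9:64716849-64716908, minus strand): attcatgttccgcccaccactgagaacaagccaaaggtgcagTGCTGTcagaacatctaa
Rab5c (chr11:100716047-100716106, minus strand): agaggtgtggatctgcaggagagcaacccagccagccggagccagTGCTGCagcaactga
Rab8a (chr8:72180078-72180137, plus strand): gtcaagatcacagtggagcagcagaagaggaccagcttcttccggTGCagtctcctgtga
Rab28 (chr5:41625770-41625829, minus strand): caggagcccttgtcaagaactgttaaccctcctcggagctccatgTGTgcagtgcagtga
Rab1a (chr11:20224786-20224845, plus strand): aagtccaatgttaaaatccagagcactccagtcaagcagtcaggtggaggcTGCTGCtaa
Rab1b (chr19:5100378-5100437, minus strand): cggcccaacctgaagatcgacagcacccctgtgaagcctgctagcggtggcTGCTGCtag
Rab7 has the arrangement of 20 members, in which 1 codon separates the cysteines. Rab10 and the Rab1 genes end in adjacent cysteine codons directly before the stop, as 15 members do. In Rab11a the pair is followed by 3 further codons, the arrangement of 6 members, and in Rab5c by 2, again in 6. Rab8a and Rab28 carry a single cysteine codon with 3 codons after it.

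Of the 59 Rab genes, 41 (69.5%) were detected, against 45.5% of all protein-coding genes. The median level over all members was 6.50 TPM, against 0.6 TPM over all protein-coding genes. Among detected genes the medians lay closer, 18.3 TPM for Rab genes and 15.5 TPM for protein-coding genes. The family summed to 1932 TPM in replicate 1 and 1828 TPM in replicate 2 (1880.0 ± 73.6), 0.188% of all TPM. Levels were uneven: 5 members averaged 100 TPM or more, 20 averaged 10 to 100 and 16 averaged 1 to 10. Rab11a and Rab7 together held 39.1% ± 1.88 of the family's TPM and the 5 highest members held 58.7% ± 1.03. Across the 41 detected members the order of TPM in the libraries correlated with a Spearman rho of 0.898, a description across genes that share their libraries.

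**Figure D1:**
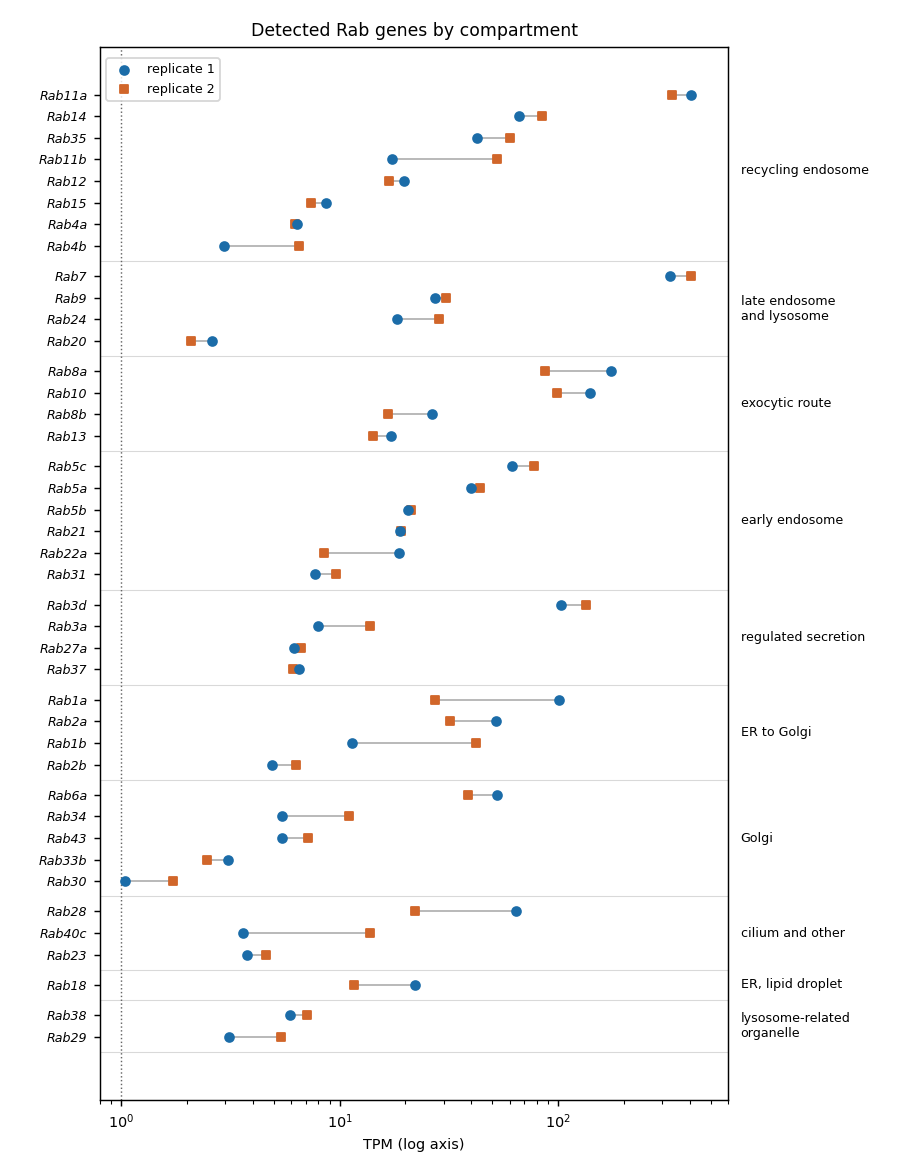
Level of each of the 41 detected Rab genes in TPM on a log axis, replicate 1 as circles and replicate 2 as squares, grouped by the compartment on which the protein acts. Rab11a and Rab7 lie above 300 TPM in both libraries (dotted line, 1 TPM), and Rab1a, Rab1b, Rab11b and Rab40c have the widest gaps between libraries.

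The recycling endosome held the largest summed level of the 10 compartments, 569 TPM in replicate 1 and 566 TPM in replicate 2, with 8 of its 10 members detected. Rab11a (chr9:64715299-64737758, minus strand, mm10), which directs cargo from recycling endosomes to the surface, had 405 and 331 TPM in replicates 1 and 2. Rab14, active between the Golgi and endosomes, had 66.1 and 84.1 TPM. Rab35, a regulator of fast recycling, had 42.4 and 60.4 TPM. In gene TPM both libraries place Rab11a well above the next member of this compartment. In library-scaled counts the gap was smaller, 176 and 146 CPM for Rab11a and 147 and 139 CPM for Rab14. On full-length coding transcripts, as defined below, Rab11a lay under Rab14, with 15.4 and 6.39 TPM against 45.3 and 35.5 TPM. Rab11b, the close relative of Rab11a, had 17.3 TPM in replicate 1 and 52.7 TPM in replicate 2. Rab12, known for its part in transferrin receptor turnover, had 19.7 and 16.8 TPM. Rab15, described mainly in neurons, had 8.62 and 7.38 TPM. Neither differed between the libraries by as much as Rab11b did. Of the Rab4 pair, which serves fast return to the surface, Rab4a had 6.40 and 6.24 TPM, almost equal between libraries, and Rab4b had 2.94 and 6.50 TPM. Rab25 and Rab17, members of epithelial cells, were not detected: Rab25 had 0.26 and 0.21 TPM and Rab17 had no read in either library.

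Late endosomes and lysosomes followed with 373 and 470 TPM in sum. Rab7 (chr6:87999106-88045270, minus strand), which drives late endosome maturation and fusion with lysosomes, had 325 and 408 TPM and made up 87.1% and 86.9% of this sum. Rab11a was the highest member in replicate 1 and Rab7 in replicate 2, so their order is not set by these libraries. Rab9, which serves transport from late endosomes to the trans-Golgi network, had 27.4 and 30.7 TPM. Rab24, linked to autophagy, had 18.2 and 28.5 TPM. Its exons overlap those of Prelid1 on the other strand over 1258 bases, and Prelid1 had 147 and 239 TPM. No source used here says whether the counting used strand, and without strand reads from the overlap cannot be told apart. Rab20 was low, at 2.59 and 2.08 TPM. The other 5 members of this compartment, Rab7b, Rab9b, Rab39, Rab39b and Rab42, were not detected.

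On the exocytic route to the plasma membrane all 4 members were detected, with 358 and 217 TPM in sum. Rab8a, which acts in delivery to the surface and in cilium formation, had 175 TPM in replicate 1 and 86.9 TPM in replicate 2. Rab10, which moves vesicles to the plasma membrane, had 139.9 and 98.8 TPM. Both were higher in replicate 1. Rab8b, the paralogue of Rab8a, had 26.5 and 16.6 TPM, and Rab13, known from tight junctions, had 17.1 and 14.2 TPM. Rab10 shares 143 exonic bases with the antisense gene Rab10os, which had 16.4 and 58.0 TPM, against less Rab10 in replicate 2 than in replicate 1. A processed pseudogene, Gm20689, is identical to Rab8b over 279 bases and had 57.4 TPM in replicate 1 and 6.31 TPM in replicate 2.

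All 6 members of the early endosome were detected, with 168 and 180.1 TPM in sum. The Rab5 genes, which control fusion of incoming vesicles, were ordered alike in both libraries: Rab5c had 61.8 and 77.7 TPM, Rab5a 40.0 and 44.1 TPM, and Rab5b 20.6 and 21.1 TPM. Rab21, which sorts integrins, had 18.9 and 19.1 TPM. These 4 differed little between libraries. Rab22a had 18.8 TPM in replicate 1 and 8.48 TPM in replicate 2. Rab31, its paralogue, had 7.69 and 9.64 TPM, so that the order of the pair in TPM differs between the libraries. The effective length of Rab22a, by which its reads are divided, was 3357 bases in replicate 1 and 5735 bases in replicate 2. A pseudogene, Gm13991, is 99.4% identical to Rab5b over 648 bases and had 4.47 and 4.38 TPM.

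In the early secretory pathway the libraries disagreed on the order of the Rab1 pair. Rab1a, which with Rab1b directs transport from the endoplasmic reticulum (ER) to the Golgi, had 101 TPM in replicate 1 and 27.4 TPM in replicate 2. Rab1b had 11.4 TPM in replicate 1 and 41.9 TPM in replicate 2. The difference runs in opposite directions for the pair, and the sum of this compartment, with Rab2a and Rab2b, was 169 and 108 TPM. Rab2a, which also serves this step, had 52.0 and 32.1 TPM, and Rab2b had 4.89 and 6.29 TPM. Rab18, of the ER and lipid droplets, had 22.2 and 11.7 TPM. Among the 9 Golgi members 5 were detected. Rab6a, which controls traffic within the Golgi and back to the ER, led them with 52.3 and 38.8 TPM. The other 4 were low: Rab34 had 5.46 and 11.1 TPM, Rab43 had 5.42 and 7.19 TPM, Rab33b had 3.09 and 2.48 TPM, and Rab30, close to the limit, had 1.04 and 1.72 TPM. Rab6b, Rab19, Rab33a and Rab36 had no read in either library.

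Of the 9 members grouped under regulated secretion, 4 were detected. Rab3d (chr9:21907491-21918192, minus strand), known from secretory granules of exocrine and blood cells, had 103 and 134 TPM and made up 82.4% of this group's sum in both libraries. Rab3a, the main Rab of synaptic vesicles, had 7.96 and 13.7 TPM. Rab27a, which docks granules and lytic vesicles, had 6.16 and 6.64 TPM. The platelet gene Rab27b stayed below the limit at 0.19 and 0.42 TPM. Rab37 had 6.54 and 6.14 TPM and its relative Rab26 had 0.63 TPM in replicate 1 and 1.04 TPM in replicate 2, the only member with the libraries on both sides of the limit. Rab3c, Rab3b and Rab44 were not detected. Of the Rabs of lysosome-related organelles, Rab38 had 5.93 and 7.06 TPM, Rab29 had 3.13 and 5.40 TPM, and Rab32 had no read. The 3 further detected genes belong to none of these routes. Rab28, of cilia and photoreceptors, had 64.5 TPM in replicate 1 and 22.0 TPM in replicate 2. Rab40c, a subunit of a ubiquitin ligase, had 3.61 and 13.8 TPM, while Rab40b had 0.07 and 0.28 TPM. Rab23, an inhibitor of Hedgehog signalling, had 3.75 and 4.61 TPM.

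Members were also sorted by tissue range. Of 37 members known from most tissues, 34 were detected, with a median of 19.0 TPM, and these widely expressed genes held 91.4% ± 1.74 of the family's TPM. Of 22 members known mainly from neurons, epithelia, secretory, pigment or other specialised cells, 7 were detected: Rab3d, Rab3a, Rab15, Rab38, Rab27a, Rab37 and Rab20. The median of these 22 was 0.218 TPM. The share of all protein-coding genes detected, 45.5%, lies between the shares of the classes. The 3 widely expressed members that were not detected were Rab32, Rab36 and Rab40b. The classes were assigned by hand with earlier results of these data known, so the split between them is a description only. Beside the tissue-restricted members that were detected, the 4 neuronal markers summed to 1.10 TPM in replicate 1 and 2.73 TPM in replicate 2, with Syp at 1.01 and 2.04 TPM. Of the 6 megakaryocyte and platelet markers, Itga2b had 74.7 and 149 TPM, Pf4 13.7 and 20.1 TPM, Gp1ba 3.60 and 7.31 TPM and Gp9 2.96 and 12.3 TPM, while Gp6 and Treml1 were at 0. The part of such cells in these levels was not tested.

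The 18 undetected members had few reads. Most reads fell on Rab3c, 69 and 27 over a long transcript, which gave 0.34 and 0.23 TPM. Apart from Rab26, no value of these genes exceeded 0.42 TPM. Rab44 had 0.11 and 0.29 TPM, Rab39 had 0.04 and 0.17 TPM, and Rab7b had 0.04 and 0.05 TPM. Rab42 (0.10 TPM), Rab3b (0.07 TPM) and Rab39b (0.04 TPM) had reads in replicate 2 alone, and Rab9b (0.01 TPM) in replicate 1 alone. Those with no read in either library were Rab6b, Rab17, Rab19, Rab32, Rab33a and Rab36, 6 in all, so at this depth they were not detectable.

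In 14 of the 19 subfamilies with several members and at least 1 detected, the highest gene held 80% or more of the TPM in both libraries, and in 9 it held 90% or more. Coding sequences of the 33 pairs compared were 54.7% to 78.5% identical base by base, so that reads of one seldom match the other. Rab7 held 99.99% of the Rab7 and Rab7b level in both libraries. Rab6a, Rab34, Rab43 and Rab33b held all of theirs, since their partners had no read. Rab40c held 98.1% and 98.0%, and Rab27a held 97.0% and 94.1%. In these families the libraries gave like shares. In the Rab10 and Rab13 pair Rab10 held 89.1% and 87.4%, and in the Rab3 group Rab3d held 92.5% and 90.5%. The 3 Rab5 genes shared their level more evenly, with Rab5c at 50.5% and 54.3%. Rab1a held 89.9% of its pair in replicate 1 and 39.5% in replicate 2, Rab22a held 70.9% and 46.8% of its pair, and Rab4a held 68.5% and 49.0%. For these 3 pairs the libraries place different genes first in gene TPM. In reads Rab22a came first in both libraries, with 70.5% and 59.5% of its pair, as did Rab4a with 78.6% and 63.2%. Rab1a held 85.7% and 45.3% of the reads of its pair, so that order differed in reads too. On full-length coding transcripts, as defined below, Rab4a led its pair in both libraries with 86.4% and 87.3%. On the same count Rab8a held 35.9% and 41.9% of its pair, so that Rab8b led, and Rab11a held 53.7% and 25.0% of the Rab11 genes, with Rab11b ahead in replicate 2.

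**Figure D2:**
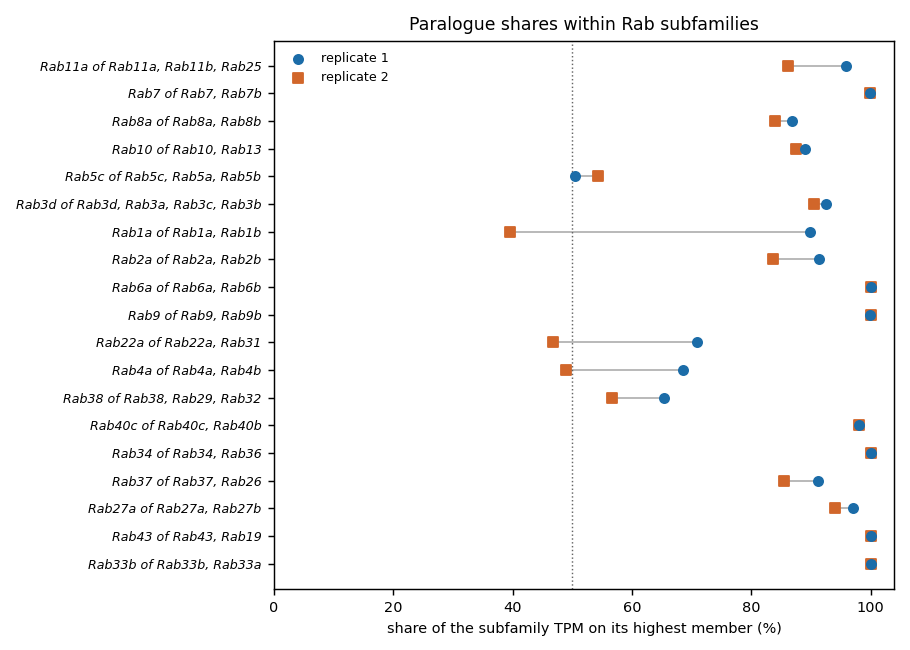
Share of each subfamily's summed TPM held by its highest member (named first), in percent, replicate 1 as circles and replicate 2 as squares, for the 19 subfamilies with several members and at least 1 detected. Most points lie above 80%, while those of Rab1a, Rab22a and Rab4a cross the dotted 50% line between libraries.

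The transcript tables changed the picture of which Rab genes lead. Each gene's TPM is the sum over its annotated transcripts, and a short transcript turns few reads into a high TPM. A transcript is called full-length coding here when its complete coding sequence reaches 80% of the gene's longest. Over the detected members, full-length coding transcripts held 59.9% ± 2.79 of TPM but 85.9% ± 0.410 of reads. Shorter or incomplete coding transcripts held 20.2% ± 0.0197 of TPM and 7.07% ± 0.0960 of reads, and retained-intron or other non-coding transcripts 17.4% ± 3.82 of TPM and 5.61% ± 0.899 of reads. Over all protein-coding genes full-length coding transcripts held 69.2% ± 0.931 of TPM. Of the 41 detected members, 36 were led by a transcript of the protein-coding class, against a share of 80.9% among all detected protein-coding genes, and 31 by a full-length coding transcript, against 70.1%.

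Rab11a was the clearest case. Its leading transcript, Rab11a-206, is 462 bases long and had 239 TPM in replicate 1 and 157 TPM in replicate 2, on 2417 and 896 estimated reads. The non-coding Rab11a-203, of 397 bases, had 145 and 113 TPM. The full-length Rab11a-208, of 2336 bases, had 15.4 and 6.39 TPM, 3.81% and 1.93% of the gene's TPM and 18.7% and 9.73% of its reads. Rab8a was similar: Rab8a-202, a retained-intron transcript of 542 bases, had 160 and 74.8 TPM, and the full-length Rab8a-201 had 14.8 and 12.0 TPM with 45.6% and 59.2% of the reads. In Rab3d, Rab3d-202, with 411 of the 660 coding bases, had 87.7 and 87.9 TPM, and the full-length transcripts together had 15.1 and 15.5 TPM. Rab35-202, of the nonsense-mediated decay class, had 31.5 and 44.2 TPM, and the full-length Rab35-201 had 11.0 and 16.2 TPM. All 4 genes thus ranked high on transcripts that do not encode the whole protein in the annotation, in both libraries.

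Other leading members showed the opposite. The whole level of Rab7 lay on full-length coding transcripts, Rab7-201 with 163 and 258 TPM and Rab7-204 with 154 and 139.6 TPM. Rab10 lay on Rab10-201 alone in both libraries. Rab5c-202 held 97.9% and 96.6% of Rab5c. Rab14 stood between, with Rab14-201 at 45.3 and 35.5 TPM and the retained-intron Rab14-204 at 10.7 and 40.7 TPM. Counted on full-length coding transcripts alone, Rab7 came first with 325 and 408 TPM, Rab10 second with 139.9 and 98.8 TPM and Rab5c next with 61.6 and 75.0 TPM, while Rab11a dropped to rank 24, Rab8a to 23, Rab35 to 22 and Rab3d to 20. On this count Rab7 alone held 29.0% and 36.1% of the family, and late endosomes and lysosomes held 33.1% and 41.5%, against 9.87% and 9.20% for recycling endosomes. Rab7 was first on this count in both libraries.

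**Figure D3:**
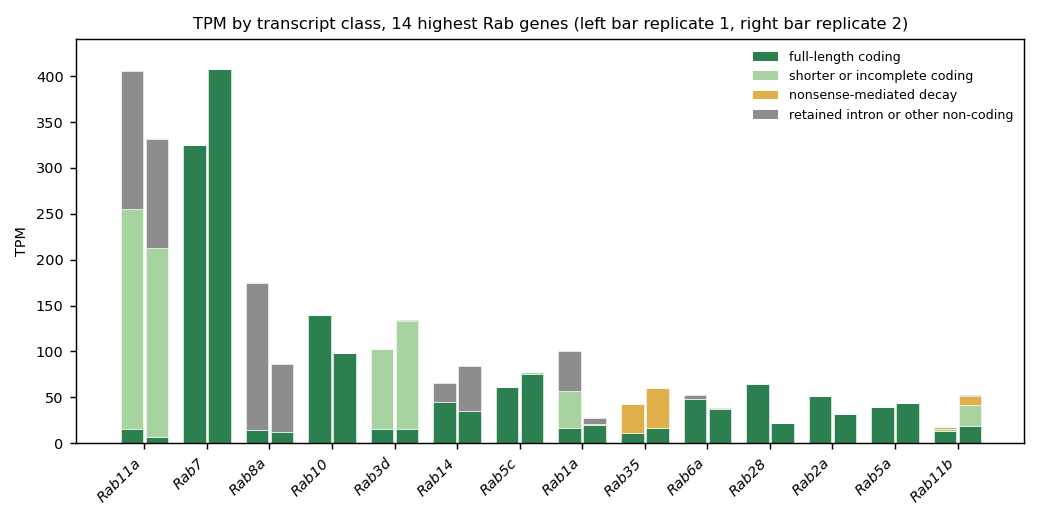
TPM of the 14 highest Rab genes split by transcript class, with replicate 1 as the left bar and replicate 2 as the right bar of each gene. Full-length coding transcripts (dark green) make up all of Rab7 and Rab10 and a small part of Rab11a, Rab8a and Rab3d.

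Rab1a was split differently in each library. Rab1a-205, a processed transcript of 702 bases, and Rab1a-202, with 381 coding bases, had 41.4 and 40.5 TPM in replicate 1, but 3.06 and 0.87 TPM in replicate 2. The full-length Rab1a-201 had 16.4 TPM in replicate 1 and 20.1 TPM in replicate 2. On full-length transcripts Rab1a was therefore close in both libraries, while Rab1b, which has 1 transcript with reads, was not. For Rab11b, the 6109-base Rab11b-201 had 94.0% of the reads in replicate 1 and 46.2% in replicate 2, with the rest on shorter transcripts, and the gene's effective length was 2.68 times as long in replicate 1 as in replicate 2. A processed pseudogene, Rab11b-ps2, is 99.8% identical to Rab11b over 654 bases and had 4.85 and 2.16 TPM. Rab4b and Rab23 were, with Rab8a, Rab1a and Rab35, the members led in mean TPM by a transcript outside the coding class. Rab4b-203 had 1.41 and 2.91 TPM and Rab23-203 had 1.17 and 2.39 TPM, both with a retained intron. In Rab23 the same full-length coding sequence was placed on Rab23-201 in replicate 1 and on Rab23-202 in replicate 2. It had 2.07 and 2.01 TPM, and 89.1% and 85.2% of the gene's reads, so the lead of Rab23-203 rests on this split. In Rab3a a coding transcript with an incomplete end, Rab3a-206 of 508 bases, had 6.90 and 11.3 TPM, and the full-length Rab3a-201 had 0.97 and 2.33 TPM. In Rab4b the full-length Rab4b-201 had 1.01 and 0.91 TPM. Rab3a and Rab4b were the 2 detected members below 1 TPM of full-length transcript in a library.

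In some genes the libraries named different leading transcripts. The leading share differed most in Rab30, where Rab30-202 had 0% in replicate 1 and 92.0% in replicate 2, on 27.3 estimated reads. Rab2b-201 held 99.0% in replicate 1 and 29.7% in replicate 2, where Rab2b-202, with 582 rather than 651 coding bases, took most of the rest. Rab27a-203 held 99.5% and 47.6%, and the other form, Rab27a-201, encodes a protein of the same length, so the coding level of Rab27a was 6.16 and 6.64 TPM. Rab40c-203 held 5.85% and 47.3%, and Rab22a-201 held 40.5% and 78.2%. In all, 29 of the 41 detected members had the same leading transcript in both libraries. Some of these, such as Rab10 and Rab1b, have 1 transcript with reads, so no other could lead. The share over all detected protein-coding genes was not counted. Rab6a has full-length forms of equal length, Rab6a-201 and Rab6a-202, whose 627 coding bases differ at 30 positions between bases 184 and 279, counted from the start codon. Rab6a-201 had 16.1 and 15.1 TPM, on 1232 and 656 estimated reads, and Rab6a-202 had no read in either library. Rab6a-203, with 528 coding bases, had 31.9 and 22.1 TPM.

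The difference between the replicates was examined in counts, as the log2 ratio of replicate 1 over replicate 2 after TMM scaling. With 1 library against 1 there is no test. Of 45 Rab genes averaging 10 counts or more, 5 were 2-fold or more apart, which is 11.1%, against 28.7% of the protein-coding genes that pass the same minimum. Higher in replicate 1 were Rab28 at 1.76, Rab1a at 1.19 and Rab18 at 1.14 (background 15.3%), followed below the 2-fold line by Rab2a at 0.91 and Rab8a at 0.89. Lower in replicate 1 were Rab1b at -1.67 and Rab40c at -1.14 (background 13.4%), followed by Rab26 at -0.97, Rab27b at -0.87 and Rab4b at -0.85. The median over the 45 members was 0.08, against -0.01 over all protein-coding genes.

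These ratios moved with base composition. The Spearman rho between the log2 ratio and the GC content of the expressed transcripts was -0.65 over the 45 Rab genes and -0.71 over 11335 protein-coding genes, both given as descriptions across genes that share the same libraries. Rab1a has a GC content of 41.2% and Rab1b of 58.9%. After the GC trend of all protein-coding genes was subtracted, the ratio of Rab1a was 0.16 and that of Rab1b -0.77 and that of Rab28 1.14. On this scale 3 members were 2-fold or more apart, Rab28, Rab20 at 1.18 and Rab27b at -1.80. Of these, Rab28 alone was among the 5 named above. Rab27b rests on 12 and 15 estimated reads and Rab20 on 88 and 39.9, whereas the trend was fitted on genes averaging 100 counts or more. The share of all protein-coding genes 2-fold apart on this scale was not counted. After the subtraction the rho with GC over the members was 0.41. The part of GC content in the order of the Rab1 pair was not tested further.

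**Figure D4:**
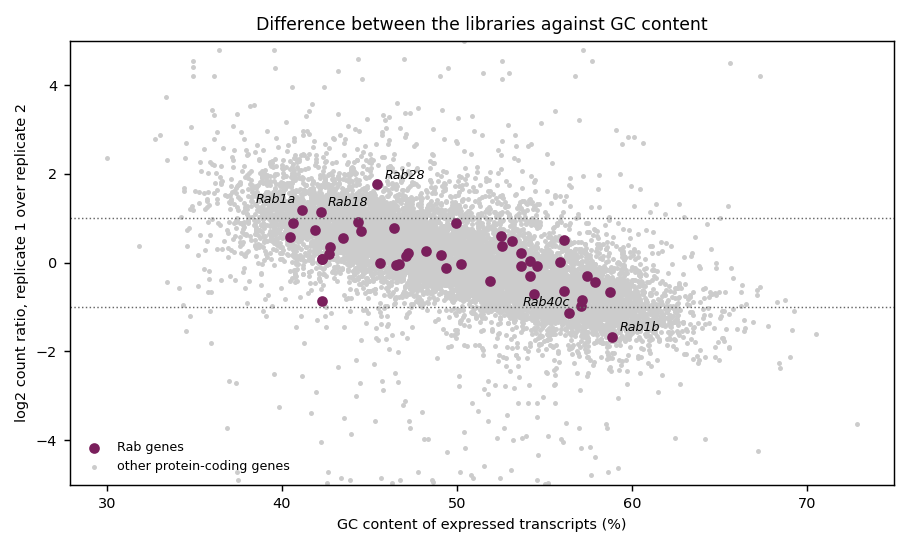
Log2 count ratio of replicate 1 over replicate 2 against GC content in percent, for Rab genes (large points) and other protein-coding genes (grey) averaging 10 counts or more, with dotted lines at 2-fold. GC-poor genes tend to lie above 0 and GC-rich genes below it, with exceptions among Rab genes such as Rab27b (42.3% GC, -0.87) and Rab20 (56.1% GC, 0.52), and 72 genes beyond a log2 ratio of 5 are not drawn.

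Promoters were read for what the members share in sequence. RefSeq windows of 300 bases (GRCm38.p6, 250 before the transcript start and 50 after it, the first listed for each gene) were at hand for 48 Rab genes. The 35 detected ones held a median of 25 CpG pairs (range 9 to 43) and the 13 undetected ones a median of 10 (range 5 to 42). The medians over all protein-coding genes were 22 for 7852 detected and 5 for 8465 undetected genes. The 250 upstream bases are shown for a CpG-rich and a CpG-poor promoter of detected genes and a CpG-poor promoter of an undetected gene, with each CpG in capitals.
Rab10 (chr12:3309970-3310219, minus strand): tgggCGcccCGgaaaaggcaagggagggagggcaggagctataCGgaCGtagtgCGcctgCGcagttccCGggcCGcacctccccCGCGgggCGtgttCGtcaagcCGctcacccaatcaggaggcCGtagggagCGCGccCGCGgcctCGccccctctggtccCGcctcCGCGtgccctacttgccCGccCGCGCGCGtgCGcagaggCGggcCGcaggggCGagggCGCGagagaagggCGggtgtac
Rab9 (chrX:166479868-166480117, minus strand): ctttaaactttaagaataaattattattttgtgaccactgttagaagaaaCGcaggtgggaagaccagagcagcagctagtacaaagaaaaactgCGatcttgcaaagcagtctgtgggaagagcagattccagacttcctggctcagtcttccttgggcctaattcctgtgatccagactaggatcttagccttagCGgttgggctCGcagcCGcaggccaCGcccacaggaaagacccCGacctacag
Rab33a (chrX:48519035-48519284, plus strand): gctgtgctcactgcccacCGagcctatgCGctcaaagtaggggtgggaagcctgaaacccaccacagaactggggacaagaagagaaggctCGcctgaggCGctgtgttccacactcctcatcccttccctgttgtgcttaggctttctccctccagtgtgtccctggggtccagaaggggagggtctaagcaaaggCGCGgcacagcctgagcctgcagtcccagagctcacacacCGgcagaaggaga
Rab10 has 34 CpG pairs in this stretch, and Rab9 and Rab33a have 7 each, although Rab9 had 27.4 and 30.7 TPM and Rab33a no read. Rab6b is the reverse case, with 42 CpG pairs in its window and no read in either library. CpG content thus differed between the classes at the median and did not separate them. The motif AGATAA, bound by GATA factors, was found on either strand in the windows of 1 detected and 0 undetected Rab genes, against 11.2% of all 32851 windows and 6.0% of those of detected protein-coding genes. CCACACCC, of the kind bound by Klf1, was found in 3 and 0, against 3.6% of all windows and 3.8% of those of detected genes. The E-box CACGTG was found in 5 (14.3%) and 0, against 7.2% of all windows and 10.8% of those of detected genes. A match of letters is a description of the window and does not show binding.

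**Figure D5:**
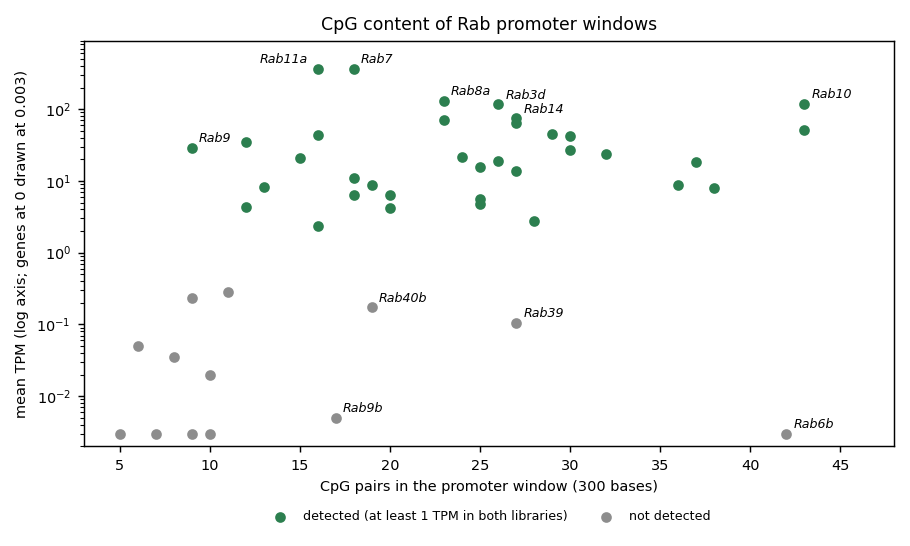
Mean TPM (log axis) against the number of CpG pairs in the promoter window, for the 35 detected and 13 undetected Rab genes with a RefSeq window, the genes with no read being drawn at the foot. Undetected genes gather at few CpG pairs, except for Rab39, Rab40b, Rab9b and Rab6b, and the detected Rab9 lies among them on the horizontal axis.

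Genes that act on Rab proteins were mostly present. All 8 measured genes of prenylation and membrane recycling were detected, against 45.5% of protein-coding genes. The GDP dissociation inhibitor Gdi2 was the highest, at 176 and 71.7 TPM. Rabac1, a prenylated Rab acceptor, had 34.1 and 43.2 TPM. Rabggta, the alpha subunit of the enzyme that prenylates Rab proteins, was the lowest, at 2.21 and 5.93 TPM, of which full-length coding transcripts had 0 and 1.37 TPM. Of 15 subunits of the TRAPP complexes, which activate Rab1 and Rab11 proteins, 14 were detected. Trappc6a had 25.5 and 103 TPM and its paralogue Trappc6b 61.4 and 17.4 TPM, so the order of this pair also differed between libraries. Full-length coding transcripts of Trappc6a had 5.79 and 25.4 TPM, so most of its gene level lay on other transcripts. Trappc1 had 32.5 and 28.3 TPM, and Trappc3l had no read.

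Exchange factors numbered 27 detected of 34 (79.4%), against 45.5% of all protein-coding genes, with a median of 9.17 TPM. Sbf1, a DENN-domain protein, had 52.4 and 115 TPM. Dennd4c, an exchange factor for Rab10, had 57.7 and 42.3 TPM. Madd, which activates Rab3 and Rab27 proteins, had 36.8 and 51.7 TPM, and Als2cl was lowest at 0 and 0.02 TPM. Of 38 GTPase-activating proteins 31 were detected (81.6%, against the same 45.5%), with a median of 12.1 TPM. Rabgap1l had 156 and 56.9 TPM, Tbc1d9b had 33.8 and 98.8 TPM, and Rabgap1 had 74.3 and 26.8 TPM, while Sgsm1 and Tbc1d19 had no read. Full-length coding transcripts of Rabgap1l had 8.38 and 6.19 TPM, so most of its gene level lay on other transcripts. The same held for Sbf1, whose full-length coding transcripts had 4.12 and 9.43 TPM, and Madd, with 5.03 and 9.78 TPM. It also held for Rabgap1, with 15.9 and 11.3 TPM on such transcripts, and Tbc1d9b, with 14.3 and 30.8 TPM.

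Of 44 effectors 30 were detected (68.2%), against 45.5% of all protein-coding genes, with a median of 5.68 TPM. Rabep1, an effector of Rab5 and Rab4, had 82.1 and 46.1 TPM. Uso1, a tether recruited by Rab1, had 53.9 and 40.4 TPM, and Myo5a, a motor for vesicles carrying several Rabs, had 51.3 and 42.3 TPM, of which full-length coding transcripts had 9.71 and 5.97 TPM. The lowest were Sytl2 and Rims2, which had no read. Among Rab27 effectors, named after their values were seen, Unc13d had 10.6 and 31.3 TPM, whereas none of Sytl1 to Sytl5, Mlph and Exph5 exceeded 0.17 TPM in either library. Rab27a itself had 6.16 and 6.64 TPM. Likewise the Rab3 effectors Rims1 and Rph3a had at most 0.51 TPM beside the 103 and 134 TPM of Rab3d, of which full-length coding transcripts had 15.1 and 15.5 TPM. Of 8 measured genes listed as Rab-like GTPases outside the symbol rule, 6 were detected (75.0%, against the same 45.5%). The list includes Cracr2a and the detected Cracr2b, and whether each listed gene encodes a GTPase was not checked. The highest were Rabl6 at 77.9 and 70.9 TPM, Rabl2 at 13.5 and 21.5 TPM and Ift22 at 5.86 and 12.6 TPM. The lowest was Rasef at 0 and 0.01 TPM. Full-length coding transcripts had 0 and 0.82 TPM in Rabl2 and none in Ift22. Such a value can be 0 because the gene's longest annotated form was not among the transcripts measured, which was not examined.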

How the data were processed

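For each library the authors deposited quantifications by gene and by transcript on mm10 with annotation M4, as the labels and file lists of the submitters state; no source used here names the program. Deposited expected counts are estimated reads without scaling, per the file headers. Deposited TPM and posterior mean TPM are length-scaled, and the percent of each gene's level on each transcript was deposited too, as were posterior SD and bounds, a signal-type column of the authors. Symbols, classes and coding sequences came from GENCODE M21, matched by Ensembl ID. Counts were rounded and scaled by TMM (edgeR 4.0.16) with a prior count of 1; DESeq2 1.42.0 size factors were an alternative. The GC trend was a lowess curve (statsmodels 0.14.6, span 0.3) over protein-coding genes averaging 100 counts or more. Near-identical copies were searched with BLAST+ 2.17.0 at 95% identity over 200 bases. The count step was tested on simulated data. Partner symbols without a match in the files, 4 in all, were left out. They are older names or synonyms, so they do not stand for partner genes that went unmeasured. The members, lists and their classes were chosen with earlier results of these data known. Named are all detected members, members of each list at its ends (3 highest, 1 lowest), and the largest transcript and replicate differences; 1 gene that this rule names is not reported here. The 80% rule for full-length transcripts was chosen after seeing the data. It takes the longest coding sequence from M21, whereas levels were given for M4 transcripts. Full-length levels can therefore be too low, or 0, where the longest form is absent from M4. Estimation splits reads among transcripts and copies, so levels of single transcripts are less certain than those of genes. The posterior SD of the gene count was at least 1% of that count in 4 detected members, at most 2.70%. This value covers whole genes and does not measure how certain the split among transcripts is, which was not examined.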

Additional observations from a re-analysis of the deposited data

How the results depend on the processing

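The number of Rab genes detected stayed between 33 and 42 under every alternative tried (other limits, 1 library, posterior mean TPM, rescaled TPM, full-length transcripts), and that of tissue-restricted members between 6 and 8. The summed level of 1880.0 TPM became 1778 TPM with posterior means, 2524 TPM when TPM was rescaled to protein-coding genes, and 1125 and 1073 TPM on full-length coding transcripts at 80% and 90% of the longest coding sequence, an alternative chosen after seeing the data. The median of 6.50 TPM became 8.67 TPM when rescaled, 5.50 and 5.03 TPM on full-length transcripts, and 15.7 TPM over members with at least 10 counts on average; with 1 library it was 6.16 to 7.19 TPM. Rab11a, the member with the highest mean TPM, held 19.5% of the family's TPM. The order of Rab11a and Rab7 is not set by these libraries. On full-length transcripts Rab7 held the largest share, with 32.6% at 80% and 34.1% at 90%. With 1 library the highest share was 20.97% (Rab11a, without replicate 2) or 22.3% (Rab7, without replicate 1). The count of members 2-fold apart, 5 of 45, was 9 of 45 in deposited TPM, 10 of 59 with no filter on counts and 3 of 45 less the GC trend. The shares of all protein-coding genes under these alternatives were not counted, so these counts describe the members alone. The median log2 ratio of the members, 0.08, became -0.16 in deposited TPM, where all protein-coding genes had a median of -0.24. It was -0.018 less the GC trend and 0.18 at a mean of at least 100 counts. The cause was not tested beyond the GC trend. Between 28 and 40 detected members were led by a coding transcript, by definition and unit. Rescaling raised all 42 named levels, by 1.31 to 1.38 times, and posterior means moved them by 0.923 to 1.23 times. No paired analysis was possible because there is 1 group.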
